A study of Arabidopsis thaliana with 20 samples.

Results

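The comparison described here is the loss of myb3r4 in whole Arabidopsis thaliana seedlings, followed in 4 matched pairs of arrays. The arrays of each pair carried the same other myb3r mutations and differed, per the labels, only by myb3r4, and the genotype on the label alone decides which arrays form a pair. They make up 8 of the 20 arrays of the series. In the first pair a myb3r4 single mutant was set against wild type, in the second a myb3r1 myb3r4 double mutant against myb3r1, in the third a myb3r3 myb3r4 myb3r5 triple mutant against the myb3r3 myb3r5 double mutant, and in the fourth the myb3r1 myb3r3 myb3r4 myb3r5 quadruple mutant against the myb3r1 myb3r3 myb3r5 triple mutant. All seedlings were 9 d old. The other arrays were the myb3r3 and myb3r5 single mutants among the seedlings, which have no partner lacking myb3r4, and 10 arrays of first leaf pairs, taken at 5 d or 15 d from the wild type or the myb3r1 myb3r3 myb3r5 triple mutant.

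MYB3R proteins are plant MYB transcription factors with 3 MYB repeats, and they bind a short promoter element, the mitosis-specific activator or MSA element, that many genes of the G2 and M phases share. In Arabidopsis, MYB3R4 is known as an activator of genes needed for mitosis and for building the new cell wall at cytokinesis, and MYB3R1 is known to act with it. MYB3R3 and MYB3R5 are known as repressors that, again together with MYB3R1, keep such genes low outside G2 and M and in cells that have stopped dividing.

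Each genotype was represented by 1 seedling array, so error was measured from the spread between the 4 pairs. That spread also held any difference in response between the backgrounds. For the loss of myb3r4, limma combined it with the spread of other probe sets (9.09 prior against 3 residual degrees of freedom). The SEs given are moderated in this way. Where the 4 pairs were uneven, the SEs can be smaller than the 4 differences alone would give. The mutant alleles and the separate origin of the samples are not stated in the labels or files at hand, so the p-values cover no more than the variation among these arrays. The supplied probe table paired no probe set with a gene of the MYB3R family alone (5 on its list), and it left 8730 probe sets without a name. Loss of the MYB3R4 transcript could therefore not be checked, and the genotype of each array is the one on its label. The seedling arrays were alike in quality: 21.4 to 24.5% of probe sets lay at or under the floor of 33 signal units, and log2 signals of any pair of arrays among the 8 correlated at 0.966 to 0.986. Arrays of the same matched pair correlated at 0.98 to 0.984, which lay inside that range. Markers of root hairs and of photosynthesis, both of which a whole seedling should hold, were present: the expansin gene EXPA18, known from root hairs, had signals of 172 to 283 on the 8 arrays and RCA, which encodes Rubisco activase, 16864 to 22867. The lists of flower and seed storage genes had no tested named member.

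Loss of myb3r4 lowered a small set of transcripts. Of 17601 probe sets tested with limma on the log2 scale, 9 (0.0511%) were called at an adjusted p under 0.05, of which 8 (0.0455%) were lower and 1 (0.00568%) was higher without MYB3R4. The 8 fell by 1.88-fold to at least 4.95-fold, and 5 of them had a gene name: AT3G02120, AT1G31335, AT5G55180, AT3G52110 and AT3G51720. In these whole seedlings, fewer cells of a type and less RNA per cell cannot be told apart. The gene table annotates these 5 loci with no name beyond the locus and no role, so none is given here. With pairs left out in turn the count was 4 without the myb3r1 pair, 27 without the myb3r3 myb3r5 pair, 10 without the wild-type pair and 7 without the triple-mutant pair. It was 0 with a floor of 100, with no filter on low signal or with no sharing of variance between probe sets, and 2 with no variance trend.

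**Figure D1:**
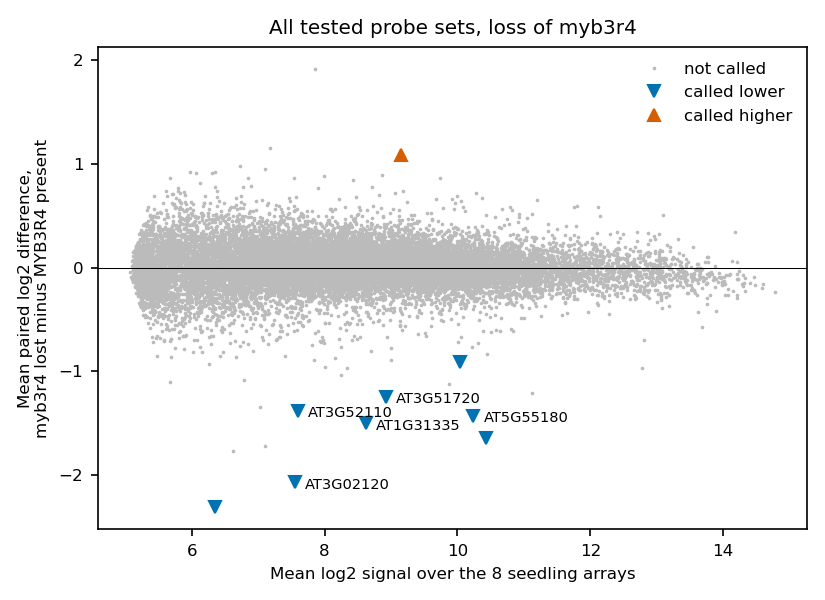
Mean paired log2 difference (myb3r4 lost minus MYB3R4 present, 4 pairs) on the vertical axis against the mean log2 signal over the 8 seedling arrays on the horizontal axis, 1 point for each of 17601 probe sets. The 8 called lower (down triangles) lie between -0.91 and -2.31, and the 1 called higher (up triangle) lies at 1.09. Uncalled probe sets lie in the same range as the falls, among them AT3G55710 at -1.76 and AT2G42110 at -1.72.

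In what follows, signals with MYB3R4 and without it are given in 1 order of backgrounds: wild type, myb3r1, myb3r3 myb3r5, and myb3r1 myb3r3 myb3r5. AT1G31335 had signals of 641, 554, 756 and 708 with MYB3R4 and of 215, 168, 257 and 320.4 without it. Every array without MYB3R4 was lower than every array with it, and the fall was of similar size in the 4 backgrounds. The paired log2 differences were -1.58, -1.72, -1.56 and -1.14, with a mean of -1.50 (SE 0.13), a 2.83-fold fall (limma, adjusted p = 0.00067). The call held with each pair left out in turn and with no variance trend.

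AT5G55180 had signals of 2002, 1999, 2242 and 1723 with MYB3R4. Without it the signals were 1029, 559.6, 854 and 602. The groups did not overlap, and the difference was smallest in the wild-type background. The log2 differences were -0.96, -1.84, -1.39 and -1.52, with a mean of -1.43 (SE 0.13), a 2.69-fold fall (limma, adjusted p = 0.00073).

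AT3G51720 had signals of 654, 809, 928 and 630.4 with MYB3R4 against 374, 291, 360.2 and 249.6 without it. The lowest array with MYB3R4 was thus well above the highest array without it. The log2 differences were -0.81, -1.48, -1.37 and -1.34, and their mean of -1.25 (SE 0.13) was a 2.37-fold fall (limma, adjusted p = 0.0029). For AT5G55180 and AT3G51720 the call held with each pair left out in turn.

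AT3G02120 showed the largest mean fall of the named genes and the least even one. Its signals were 407, 388, 446 and 311 with MYB3R4, and 229, 50.5, 154 and 39.7 without it. The groups did not overlap, and the lowest signals, near the floor, were those of the myb3r1 myb3r4 double and the quadruple mutant. The log2 differences were -0.83, -2.94, -1.53 and -2.97, with a mean of -2.07 (moderated SE 0.30), a 4.19-fold fall (limma, adjusted p = 0.031). Their SD over the 4 pairs was 1.06, against a median SD of 0.26 over all probe sets tested. The adjusted p was 0.10 without the myb3r1 pair and 0.10 without the triple-mutant pair.

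AT3G52110 had a like pattern. It was measured at 341, 344, 308 and 262 with MYB3R4 and at 179.9, 102, 144.5 and 77.0 without it. Again no array without MYB3R4 reached the lowest array with it, and the lowest signals were those without both MYB3R1 and MYB3R4. The log2 differences of -0.92, -1.75, -1.09 and -1.77 gave a mean of -1.38 (SE 0.18), a 2.61-fold fall (limma, adjusted p = 0.012). The adjusted p was 0.091 without the myb3r1 pair and 0.059 without the triple-mutant pair.

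**Figure D2:**
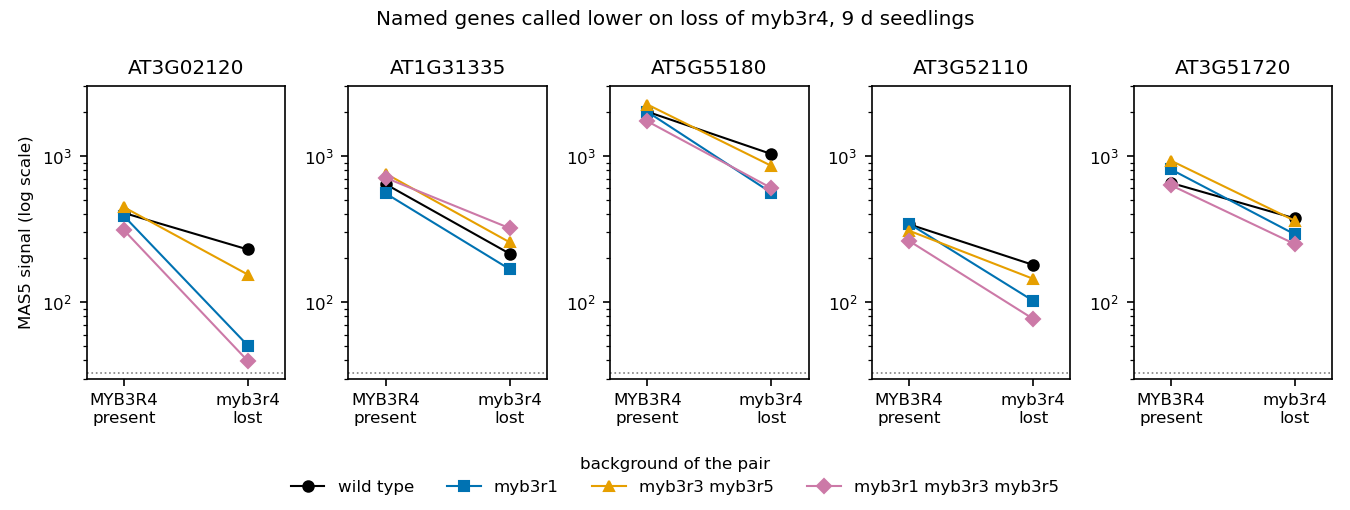
MAS5 signal (log axis, floor dotted) of the 5 named genes called lower, with MYB3R4 present on the left and myb3r4 lost on the right of each panel, 1 line per background. All 20 lines slope down, and in AT3G02120 and AT3G52110 those of the myb3r1 and myb3r1 myb3r3 myb3r5 backgrounds end lowest.

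The other 3 probe sets that fell have no gene name here. The probe set 252078_at dropped from 169, 184, 188 and 186 with MYB3R4 to 44.1, 31.7, 30.5 and 37.6 without it. It was thus close to the floor in all 4 mutants and under it in 2, so its fall was at least 4.95-fold (mean log2 difference at least 2.31 lower, limma adjusted p = 0.00044). It and AT1G31335 were the only 2 probe sets more than 1 log2 unit lower in all 4 pairs, and no probe set was as much higher in all 4.

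The probe set 253480_at was at 2349.7, 2240.4, 2367 and 2842 against 1309, 529.5, 989 and 540.0. Its groups did not overlap, and its mean log2 difference was -1.65 (SE 0.20, limma adjusted p = 0.0084). Without the myb3r1 pair the adjusted p was 0.053. The third unnamed probe set had the smallest fall, a mean log2 difference of -0.91 (SE 0.12, limma adjusted p = 0.016), and lost the call without the myb3r1 pair (adjusted p = 0.098) and without the triple-mutant pair (adjusted p = 0.10). Its signal was 1398 to 1512 with MYB3R4 and 636 to 952 without.

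The myb3r3 and myb3r5 single mutants, which keep MYB3R4 and entered no fit, gave a further reading of the 8 falls. In 8 of 8 both single mutants had a higher signal than any of the 4 arrays without MYB3R4, against 6.84% of all probe sets tested. The arrays without MYB3R4 in that count are those that chose the 8, so the single-mutant values alone are new. AT3G02120 was at 332 in myb3r3 and 492 in myb3r5, AT1G31335 at 563 and 665, and AT5G55180 at 2411 and 2458. These values lay within or above the range of the 4 arrays with MYB3R4. AT3G51720, at 632 and 1139, and AT3G52110, at 329 and 328, did so too.

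The 1 called rise, the unnamed probe set 266353_at, was measured at 443, 235, 405 and 539.8 with MYB3R4 and at 1104, 604, 669 and 1039 without it. Its groups did not overlap (mean log2 difference 1.09, SE 0.13, limma adjusted p = 0.0084), but the myb3r3 single mutant, which keeps MYB3R4, had the highest signal of all, 1262, and the myb3r5 single mutant had 484. With all 10 seedling arrays in 1 additive fit its adjusted p was 0.68. It was 0.066 without the wild-type pair and 0.061 without the myb3r1 pair.

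Beyond the calls, a broader set was counted: unadjusted p under 0.05, the same sign in all 4 pairs and a mean change of more than 1.5-fold. It held 96 probe sets (0.545%) lower and 64 (0.364%) higher without MYB3R4. Across all probe sets tested, 290 (1.65%) had 4 arrays without MYB3R4 that all lay below the 4 with it. At an unadjusted p under 0.05 alone there were 625 lower and 786 higher. Of all probe sets tested, 2695 had the same sign in all 4 pairs. The paired differences of any 2 pairs correlated at -0.027 to 0.19 across the 17601 probe sets, which are not independent replicates. The SD of the paired differences was 0.338 to 0.386 log2 units per pair, and their medians lay between -0.00202 and 0.0398.

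Named genes that missed the threshold but came next by p included 2 with differences of over 3-fold. AT3G55710 was at 192, 159, 128 and 278 with MYB3R4 and at 63.2, 34.3, 84.4 and 44.7 without it (mean log2 difference -1.76, SE 0.27, limma adjusted p = 0.055). AT2G42110 was at 277.5, 265, 230.1 and 234 against 156, 63.3, 102 and, under the floor, 29.6 (-1.72, SE 0.27, limma adjusted p = 0.055). In both genes the groups did not overlap, and the widest differences were in the myb3r1 and triple-mutant backgrounds. Without the myb3r3 myb3r5 pair, the left-out pair that gave the most calls over all probe sets, the adjusted p was 0.0022 for AT3G55710 and 0.021 for AT2G42110. That pair held the smallest log2 difference of AT3G55710, -0.60. Fits without another pair are not given for these genes, and with all 4 pairs neither was called.

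The remaining 5 genes on the lower side taken by the same rule had mean log2 differences between -1.34 and -0.60 and adjusted p-values of 0.095 to 0.12: AT5G39520 (-1.34), AT5G66230 (-0.81), AT4G20430 (-0.77), AT1G19020 (-0.66) and AT3G04210 (-0.60). On the higher side no named gene was called. The one of smallest p was AT5G18600, at 892, 614, 602 and 549 with MYB3R4 and 1422, 827, 980.3 and 983 without it (0.66, SE 0.11, limma adjusted p = 0.071), with groups that overlapped. MSRB6, which encodes a methionine sulfoxide reductase, an enzyme that repairs oxidised methionine, was at 267, 254, 396 and 392 against 434, 463, 535 and 842.5 (0.78, SE 0.13, limma adjusted p = 0.095). The groups of MSRB6 did not overlap, yet its myb3r3 single mutant stood at 615, within the range of the arrays without MYB3R4.

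The other 10 genes of the higher side had mean log2 differences of 0.42 to 0.98 and adjusted p-values of 0.15 to 0.32: AT4G13160 (0.86), AT1G04660 (0.98), AT5G60400 (0.77), JAL33 (0.42), AT1G21830 (0.47), AT3G18930 (0.59), rps18 (0.47), AT2G20670 (0.51), AT5G59080 (0.51) and LPA1 (0.55). JAL33 encodes a jacalin-related lectin, rps18 a protein of the plastid ribosome, and LPA1 a factor for the assembly of photosystem II. AT1G21830 and AT3G18930 each had another probe set, with mean log2 differences of 0.28 and 0.14.

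The genes through which MYB3R proteins are best known, those of G2, mitosis and cytokinesis, did not include a call. Of 69 such genes on 3 lists, 20 had a tested named probe set, 21 probe sets in all. None was called by limma, against 0.0511% of all probe sets tested, a share at which 21 probe sets would seldom hold a call. An unadjusted p under 0.05 was found for 5 (23.8%), against 8.02% of all probe sets tested. Of these, AT1G63100 had a mean log2 difference below 0 (-0.70). The means of WYR, ATSMC2, 3xHMG-box1 and 3xHMG-box2 lay above 0, at 0.34 to 0.47. An ordinary linear model with no shared variance called 0 of all probe sets. The median of the 21 mean log2 differences was 0.0627, against 0.0147 for all probe sets tested. By background it was 0.348 in the wild-type pair, 0.0795 in the myb3r1 pair, -0.253 in the myb3r3 myb3r5 pair and 0.125 in the triple-mutant pair. Most members of the cyclin and cyclin-dependent kinase list have no named probe set and are not analysed here.

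AT1G63100 (SCL28) was the only measured member of the list of G2/M cyclins, kinases and other regulators, and had the lowest mean of the 21. This GRAS gene is neither a cyclin nor a kinase gene. It was at 289, 334, 302 and 358 with MYB3R4 and at 254, 186, 179 and 179.6 without it. Its groups did not overlap (mean log2 difference -0.70, SE 0.16, limma adjusted p = 0.26), and in the wild-type background it differed by -0.19 only. The genes of the mitotic Aurora kinases AUR1 and AUR2 had means of -0.01 and -0.11. AUR1 was at 687, 725, 808 and 992 with MYB3R4 and at 777, 767, 674.5 and 962 without it, and the groups overlapped almost completely.

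On the higher side, WYR, which encodes a subunit of the chromosomal passenger complex that guides Aurora kinase, had a mean log2 difference of 0.47 (SE 0.19, limma adjusted p = 0.56). The condensin subunit gene ATSMC2 had 0.45, the mitotic chromosome-binding protein genes 3xHMG-box1 and 3xHMG-box2 had 0.37 and 0.34, and KINESIN-12B, a motor of the phragmoplast, 0.30. The remaining Aurora kinase gene, AUR3, had 0.31, and BUBR1 of the spindle checkpoint -0.26. None of these passed the test. HTR12, the centromeric histone H3 gene, had 0.38 and 0.27 in the wild-type and myb3r1 pairs and -0.53 and -0.52 in the others, with a mean of -0.10.

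**Figure D3:**
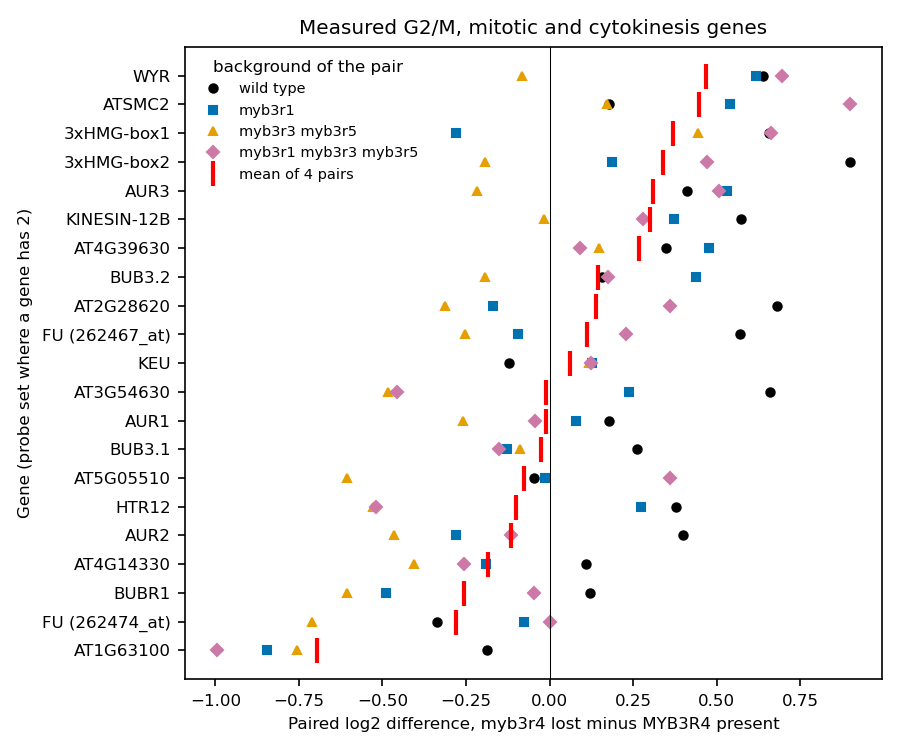
Paired log2 differences (myb3r4 lost minus MYB3R4 present) of the 21 tested probe sets on the G2/M, mitotic and cytokinesis lists, 1 point per pair and a bar for the mean of the 4 pairs. The means run from -0.70 for AT1G63100 to 0.47 for WYR, and most triangles of the myb3r3 myb3r5 pair lie left of the circles of the wild-type pair.

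Genes of other phases and pathways were described by the same count. DNA replication genes were represented by PRL, a subunit of the replicative helicase, with 0.09, and ICU2, the catalytic subunit of DNA polymerase alpha, with 0.00. SIM, a cyclin-dependent kinase inhibitor known from trichomes that replicate without dividing, had 0.33 (limma adjusted p = 0.54), with 0.34, 0.35, 0.57 and 0.05 in the 4 pairs. Across the 32 lists, 10 had no tested member and 0 had a called member, where 0.0511% of all probe sets tested were called. At that share lists of this size would seldom hold a call. The 12 lists with 3 or more tested probe sets included tubulin (7 probe sets, median -0.0805), glutathione S-transferases (11, median 0.00934), UDP-glycosyltransferases (32, median -0.0447) and expansins with xyloglucan endotransglucosylases (22, median 0.00445).

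The plastid genome gave 69 probe sets with a median of 0.123, and 12 (17%) had an unadjusted p under 0.05, against 8.02% of all probe sets tested. Their median was 0.315 and 0.164 in the wild-type and myb3r1 pairs and -0.0819 and 0.00363 in the myb3r3 myb3r5 and triple-mutant pairs. The lowest p was that of ndhF, a subunit of the plastid NDH complex, at 59.9, 63.3, 45.6 and, under the floor, 26.9 with MYB3R4 and at 104.8, 109.7, 70.9 and 88.5 without it. Its groups did not overlap (mean log2 difference 0.92, SE 0.20, limma adjusted p = 0.23). The 4 measured nuclear photosynthesis genes had no call. LHCB4.3, an antenna protein of photosystem II, had -0.61 (SE 0.12, limma adjusted p = 0.16), RCA -0.27, LHCB4.1 -0.15 and LHCB4.2 -0.00. With quantile normalization the median of these 4 genes moved from -0.211 to -0.082.

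The cold and jasmonate lists had no call. COR15A, a cold-regulated chloroplast protein gene, differed by 0.13, -1.38, -2.80 and 0.47 in the 4 pairs. The jasmonate-induced defensin gene PDF1.2 was at 773, 1045, 3024 and 5112 with MYB3R4 and at 495, 3401, 3533 and 12724 without it. It was highest in both arrays of the triple-mutant pair, and the groups overlapped. Its mean log2 difference was 0.65 (SE 0.28, limma adjusted p = 0.60).

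The 8 arrays form a complete set of combinations of myb3r1, myb3r4 and the joint loss of myb3r3 and myb3r5, so whether the effect of myb3r4 differed with the other mutations was tested as an interaction. With myb3r1, limma called 3 of 17601 probe sets (0.017%), and 845 had an unadjusted p under 0.05. All 3 probe sets are unnamed. The probe set 259399_at was at 294, 419, 329.8 and 1049.5 with MYB3R4 and at 387.5, 129, 481.5 and 260.5 without it. It was thus higher without MYB3R4 where MYB3R1 was present and lower where MYB3R1 was lost. The log2 effect of losing myb3r4 was 0.47 with MYB3R1 and -1.86 without it, a difference of -2.33 (SE 0.26, limma adjusted p = 0.041).

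The other 2 ran the opposite way. The probe set 251625_at was at 182, 373, 486 and 352 with MYB3R4 and at 85.3, 677, 187 and 866 without it. The log2 effect of losing myb3r4 was -1.24 with MYB3R1 and 1.08 without it, a difference of 2.31 (SE 0.28, limma adjusted p = 0.044). The probe set 248311_at was at 659, 316, 347 and 171 with MYB3R4 and at 330, 593, 174 and 416 without it. Its log2 effect was -0.99 with MYB3R1 and 1.096 without it, a difference of 2.09 (SE 0.26, limma adjusted p = 0.046). Both effects had 1 sign in the wild-type and myb3r3 myb3r5 backgrounds and the opposite sign in the other two. With quantile normalization the interaction count was 0, and with the wild-type, myb3r1 or myb3r3 myb3r5 pair left out it was 31, 26 or 32, on 1 residual degree of freedom, with all 3 calls among them. Without the triple-mutant pair it was 3, and only 1 of the 3 calls above was among them.

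Among named genes, the interaction with myb3r1 of smallest p was that of AT3G02640. It was at 1424, 1318, 1133 and 1691 with MYB3R4 and at 1419, 414, 838 and 325 without it. Its signal was low only where both MYB3R1 and MYB3R4 were lost, and in the wild-type background the 2 arrays were at the same level. The log2 effect of losing myb3r4 was -0.22 with MYB3R1 and -2.02 without it, a difference of -1.80 (SE 0.27, limma adjusted p = 0.14). PDF1.2 (difference 1.72, limma adjusted p = 0.20) and GAT1_2.1, a gene of the glutamine amidotransferase family (-1.84, limma adjusted p = 0.28), followed.

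The 8 probe sets that fell were set out in the same way. In 7 of 8 the fall was larger where MYB3R1 was also lost, the exception being AT1G31335, and the median log2 difference over the 8 was -1.13 with MYB3R1 and -1.72 without it. None of these differences was called: the lowest adjusted p was 0.30 for AT3G02120 (difference -1.78, SE 0.33), followed by 0.32 for 253480_at (-1.19, SE 0.22). In the 96 probe sets of the broader lower set, 47 had the larger fall without MYB3R1. Read the other way, loss of myb3r1 moved AT3G02120 by -0.29 log2 units where MYB3R4 was kept and by -2.07 where it was lost. For AT3G52110 these values were -0.11 and -0.86, and for 253480_at 0.10 and -1.09, from the same 8 arrays.

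With the joint loss of myb3r3 and myb3r5, limma called 0 interactions (0%), while 600 had an unadjusted p under 0.05 and the ordinary linear model also gave 0. The smallest adjusted p was 1. Without the triple-mutant pair the count was 9. The named genes of smallest p were AT2G43800 (difference -1.19), the plastid ribosomal protein gene rpl36 (-1.01) and AT3G60410 (1.71). Over the 8 falls the difference lay between -0.37 and 0.30.

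The leaf arrays, in which MYB3R4 was always present, gave a readout of the same probe sets that the seedling comparison did not use. In wild type, first leaves of 5 d are still growing by cell division, while at 15 d most of their cells have left the cell cycle. All 8 probe sets that fell without MYB3R4 in seedlings also declined between 5 d and 15 d in leaves of the wild type, against 26.5% of the 16854 probe sets tested in leaves. Their log2 changes ran from -6.08 to -2.62 with a median of -4.24, against a median of 0.0108 for all probe sets.

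AT3G02120 fell from a signal of 1518 ± 334 (SD, n = 2) at 5 d to 30.3 ± 7.51 (SD, n = 3) at 15 d, under the floor on average (log2 change -5.43, a bound since 2 of 3 arrays were at the floor, limma adjusted p = 3.9e-06). AT3G52110 fell from 903 ± 186 to 33.9 ± 8.16 (-4.61, limma adjusted p = 5.2e-06), with the same numbers of arrays and 1 of 3 at the floor. AT1G31335 went from 2001 ± 22.1 to 96.2 ± 39.1, AT5G55180 from 6597 ± 59.3 to 516 ± 332 and AT3G51720 from 843 ± 388 to 67.2 ± 6.16. In the older leaf AT3G02120 and AT3G52110 were thus at or near the floor, while no array of the other 3 genes was at it.

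The broader lower set was divided almost evenly, while more of the broader higher set were lower than higher with leaf age. Of the 96 lower members, 89 were tested in leaves, and 31 (34.8%) were lower and 33 (37.1%) higher at 15 d than at 5 d, where 24.4% of all probe sets were higher. Of the 64 higher members, 48 were tested, and 16 (33.3%) were lower and 5 (10.4%) higher. AT5G39520, AT1G19020 and AT3G04210, 3 of the uncalled genes above, were higher with leaf age, by at least 5.61, 5.36 and 6.14 log2 units, since 2, 2 and 1 of the 2 wild-type arrays of 5 d were at the floor (limma adjusted p of 0.00019, 3.4e-05 and 7.6e-05). AT2G42110 and AT4G20430 were lower with leaf age, by log2 changes of -4.40 and -3.88 (limma adjusted p of 1.6e-05 and 0.00022), which are bounds, since 3 and 2 of the 3 wild-type arrays of 15 d were at the floor. AT3G55710 was not called with leaf age (-0.68, limma adjusted p = 0.18).

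In 15 d leaves of the myb3r1 myb3r3 myb3r5 triple mutant, which keeps MYB3R4, 114 probe sets (0.676%) were called higher than in wild type. With the replicate numbers as a block, a pairing inferred from the values and not stated in the labels, the count was 399 (2.37%). Of the 8 seedling falls, 1 was among the 114, the third unnamed probe set (log2 change 2.101, limma adjusted p = 0.0071, from 718 ± 193 to 3037 ± 588, SD, n = 3 each). With the block a second, AT5G55180, was called too (1.57, limma adjusted p = 0.0052, against 0.61 without it). AT3G02120 (0.19), AT3G52110 (-0.03), 252078_at (-0.21) and 253480_at (-0.37) were not called, at adjusted p-values of 0.90 or more, or of 0.30 to 0.96 with the block. AT1G31335 (0.70) and AT3G51720 (0.85) were not called either, at adjusted p-values of 0.67 and 0.56, or of 0.058 and 0.056 with the block.

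Of the 114, 111 were tested in seedlings. Loss of myb3r4 left their median at 0.0041, and 54 (48.6%) had a mean below 0. Their median was 0.0913, 0.0133, -0.0617 and 0.0231 in the 4 pairs. On the same 8 arrays the joint loss of myb3r3 and myb3r5 gave these 111 a median of 0.652, against -0.027 for all probe sets tested, and loss of myb3r1 gave 0.222, against -0.00948. AUR2, one of the 114, was at 353, 423, 769 and 1107 with MYB3R4 and at 465, 348, 556 and 1023 without it. Its signal was thus highest in both arrays of the triple-mutant pair, with MYB3R4 and without it. With single leaf arrays left out, the number of probe sets called higher at 15 d was 565 without the first triple-mutant array, 75 without the second triple-mutant array, and 66 and 70 without the second and the third wild-type array of that age, and the median seedling difference stayed between -0.013 and 0.039.

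AT5G66230, uncalled in seedlings at -0.81 (limma adjusted p = 0.095), was higher in the 15 d triple-mutant leaf, by at least 2.93 log2 units (limma adjusted p = 0.012), a bound since 2 of 3 arrays of the wild type were at the floor, its signal being 32.3 ± 26.0 in the wild type against 321 ± 103 in the triple mutant (SD, n = 3 each). It was also lower with leaf age in wild type, by a log2 change of -5.02, a bound for the same reason. Its seedling signals were 560.03, 528, 462 and 654 with MYB3R4 and 406, 237, 322 and 310.2 without it, and these groups did not overlap.

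**Figure D4:**
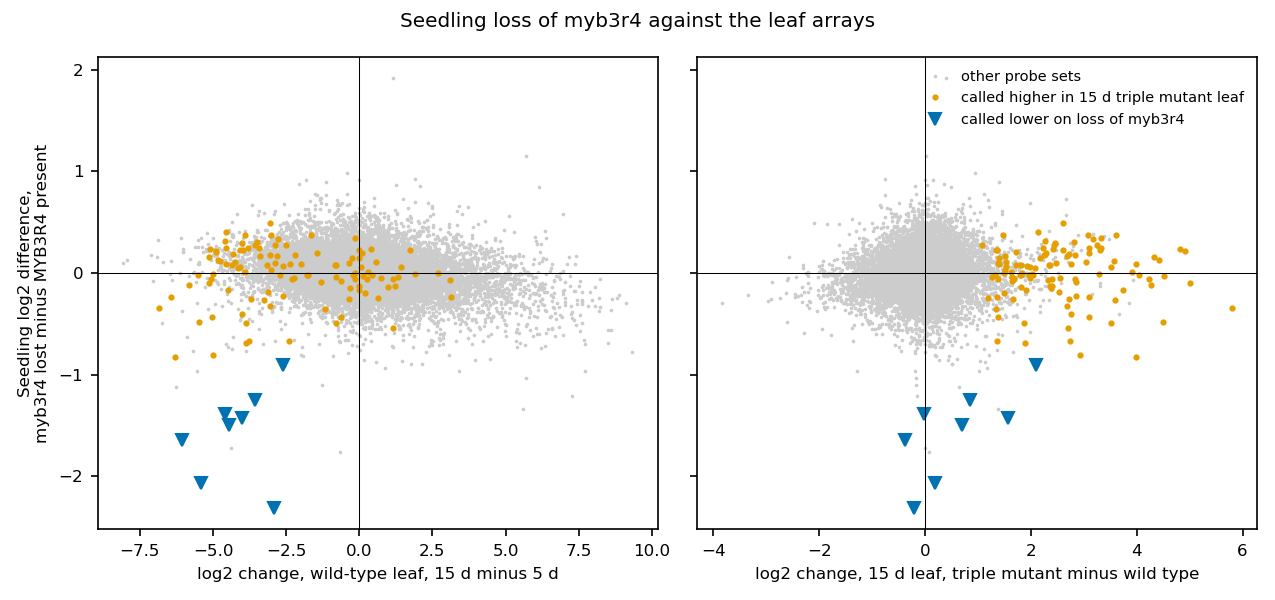
Seedling log2 difference on loss of myb3r4 (vertical axes) against the log2 change from 5 d to 15 d in wild-type leaves (left) and against triple mutant minus wild type in 15 d leaves (right), 1 point per probe set. The 8 falls (triangles) all lie between -6.08 and -2.62 on the left axis and 1 of them, at 2.101 on the right axis, is among the probe sets called higher in the mutant leaf (circles), whose seedling median is 0.0041.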

How the data were processed

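The 20 Affymetrix arrays of Arabidopsis seedlings and leaves hold 22810 probe sets each. The deposited values are linear intensity values, made with MAS5 per the submitters' processing notes (version not given in the sources used here). The trimmed mean signal was 500.04 to 500.06 on every array, so arrays were not scaled again. Signals under 33 were set to 33 and log2 was taken. The 64 array controls were left out, and probe sets above 33 on at least 4 of the 8 seedling arrays (or of the 10 leaf arrays) were tested.

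Paired differences were fitted in limma 3.58.1 under R 4.3.3, with background genotype as a block, a variance trend, 3 residual degrees of freedom (2 for interactions) and Benjamini-Hochberg adjustment over all probe sets tested, two-sided. An exact sign-flip test over 4 pairs cannot go below p = 0.125, so none was used. Leaf arrays were fitted with a mean per group. At 15 d, leaf samples with the same replicate number had deviations from their group means that correlated at 0.73, 0.60 and 0.57. Samples with unlike numbers correlated at -0.67 to 0.42, and deviations from a shared group mean are not independent. A pairing by number is thus only inferred, from the same values that the block was then fitted to. The blocked values are printed where they changed a call. The number of arrays limits the precision.

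Probe sets were named from the supplied probe table and the TAIR10.1 gene table: 13513 paired with 1 gene, 503 with several and 8730 with none, and 13436 matched the gene table. For the loss of myb3r4, the named genes are the 12 largest falls and 12 largest rises among calls, filled up by smallest p, with a mean signal of at least 132 in the higher group and 1 sign in all 4 pairs. Without those limits, the rule took per interaction the called probe sets, or the 3 named genes of smallest p, and per list the called members, or the 2 of highest signal, with up to 6 G2/M genes by smallest p. AUR2, HTR12, AUR3, BUBR1, AT5G66230's leaf values, COR15A, ndhF, LHCB4.3 and LHCB4.2 were chosen after their values were seen. Of 266 genes on lists by member, 48 had a named probe set; 12 further lists were drawn by name from the gene table. The members of the comparison and the lists were chosen with earlier results of these data known. Promoter sequences were not analysed here. Alternatives covered the floor, the filter, quantile normalization, the variance model, the block, left-out pairs and arrays, and all 10 seedling arrays.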

Additional observations from a re-analysis of the deposited data

Results flagged for a closer look

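In 3 probe sets the effect of losing myb3r4 differed with MYB3R1 by the test of the interaction itself, and each has its arrays given above: 259399_at (difference -2.33 on the log2 scale), 251625_at (2.31) and 248311_at (2.09). In the wild-type and myb3r3 myb3r5 pairs their log2 differences were 0.40 and 0.55, -1.096 and -1.38, and -0.995 and -0.99, and in the myb3r1 and triple-mutant pairs -1.70 and -2.01, 0.86 and 1.298, and 0.91 and 1.28. In wild-type leaves 259399_at and 251625_at were higher at 15 d than at 5 d, by at least 8.51 and 6.67 log2 units, since both 5 d arrays were at the floor (limma adjusted p of 0.00017 and 3.9e-05).

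Among 40 sets of 4 paired values looked at for a sample far from the others, 1 stood out by Dixon's 95% limit for 4 values, where chance gives about 1 in 20. It was the median of the expansin and xyloglucan endotransglucosylase list, -0.177 in the triple-mutant pair against 0.0963, 0.127 and 0.0958 in the other pairs.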

How the results depend on the processing

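The number of probe sets called for loss of myb3r4, 9 as reported, was 9 with a floor of 8, with the filter set to all 8 arrays or with quantile normalization, and 10 with all 10 seedling arrays. It was 0 with a floor of 100, 0 with no filter, 2 with no variance trend and 0 with an ordinary linear model, and it ranged from 4 to 27 with pairs left out. With no filter, 14.7% of probe sets were at the floor on all 8 arrays, and with a floor of 100, 13.3%. Such probe sets have no variance, and limma's prior degrees of freedom were 0.745 and 0.833, against 9.09 as reported. With no replicate block, that is without pairing by background, the count was 6, all lower, and AT3G02120, AT3G52110 and 266353_at were not called (adjusted p of 0.56, 0.12 and 0.64). The interaction with myb3r1 gave 3 as reported and 0 with a floor of 100, no filter, quantile normalization, no variance trend or an ordinary linear model. With pairs left out it gave 3 to 32. These and the left-out pairs of the other interaction, which gave 0 to 9, were added after the data were seen. With the replicate block in leaves, the number of seedling falls higher in the 15 d triple mutant was 2 in place of 1. The 8 falls lower with leaf age stayed at 8 under every leaf alternative. Over named genes and settings, 307 values kept direction and side of the threshold, 47 lost the call, 8 gained it and 0 turned direction. Every called probe set lost its call with a floor of 100, no filter or an ordinary model. Signal near the floor of 33 limits the size of falls that end there, as for 252078_at.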

Other observations

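Of the 40 protein-coding genes nearest to MYB3R4 (AT5G11510) in the gene table, 20 on each side, 20 had a named tested probe set. Of these limma called 0, against 0.0511% of all probe sets tested, and 1 had an unadjusted p under 0.05, against 8.02%. At such shares so few genes would seldom hold a call. Their log2 differences on loss of myb3r4 ran from -0.201 to 0.47 with a median of -0.00666, and the smallest adjusted p was 0.41.

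The called genes AT3G51720 and AT3G52110 lie on the same chromosome with 40 protein-coding genes between them in the gene table. Of those, 11 had a named tested probe set. Among the 11 limma called 0, against 0.0511% of all probe sets tested, and 0 had an unadjusted p under 0.05, against 8.02%. A group of 11 genes would seldom hold a call at that share. Their differences ran from -0.388 to 0.252 with a median of 0.0958 and a smallest adjusted p of 0.68.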
